A study of Mus musculus with 60 samples.

Results

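The 10 genes described here are immediate early genes, which neurons transcribe within minutes of firing: the AP-1 subunits Fos, Fosb, Fosl2 and Junb, the zinc-finger factors Egr1, Egr2 and Egr3, the nuclear receptor Nr4a1, the neuronal factor Npas4 and the synaptic effector Arc. They are known members of this class, and they were chosen with earlier results of these data known. Their peaks are those to which the 12 deposited peak lists assign 1 of these symbols. All 10 had at least 1 peak, out of 16995 gene symbols with a peak in any list. Together they held 135 of 256375 peaks, 124 of 155961 for H4K8ac and 11 of 100414 for H3K27me3.

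CUT&RUN-seq, in which an antibody directs a nuclease to cut out the DNA around a histone modification, was run on hippocampal nuclei of Emx1-NuTRAP mice. These mice carry an Emx1-Cre driver and a NuTRAP reporter cassette, so that nuclei and ribosomes of the Emx1 lineage (excitatory neurons, and any astrocytes that arise from the same stem cells) are tagged for purification, and every group carried both alleles. Exercised mice had wheel access from postnatal day 21 to 41 and sedentary mice did not, and neither group had memory training. In the SIT arm (simultaneous isolation) nuclei and RNA came from a homogenate of both hippocampi, and in the left separate and right separate arms nuclei alone came from the hippocampus of that side. The labels place 60 samples in 18 groups, 4 per antibody and condition in SIT and 3 in each separate arm, of which 20 samples were IgG controls without a peak list here. Each of the 12 lists stands for 1 mark, condition and arm with its libraries combined, and holds positions only. The lists give no replicate values, no signal height and no depth. Signal tracks and reads of the single libraries, which the study also names, were not used here, so no test was run on these lists and a difference between them was not set against a spread between mice.

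Immediate early genes are switched on without new protein synthesis, through factors already bound to their promoters and to enhancers further away. CREB at cAMP response elements, SRF at serum response elements and MEF2 are the best known of these factors in neurons, and they recruit the histone acetyltransferases CBP and p300. Their products either regulate a later set of genes, such as Bdnf, or act at the synapse directly, as Arc does by driving the internalisation of AMPA receptors. H4K8ac is an acetylation found at active promoters and enhancers, and H3K27me3 is the methylation laid down by Polycomb repressive complex 2 at repressed genes.

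Bases that carried H4K8ac at 5 of the genes are shown as examples, from regions covered in all 6 lists (Fosl2 and Junb) to regions covered in some (Nr4a1, Egr2 and Fos), and the promoters of Fos, Junb and Egr2 because the listed peaks lay beside them in different ways. All are read 5′ to 3′ on the strand of the gene. Regions are from the GRCm38 genome, 300 bases around the middle of the bases covered in most lists, and promoters are the 250 bases before a RefSeq start site on GRCm38.p6. None overlapped an annotated exon. Capitals mark matches on either strand to TGACG (the core of the cAMP response element TGACGTCA), the CArG box of the serum response element, TGANTCA (the AP-1 site) or GCGNGGGCG (the EGR site).

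Fosl2 region, chr5:32133729-32134028, covered in 6 of 6 H4K8ac lists: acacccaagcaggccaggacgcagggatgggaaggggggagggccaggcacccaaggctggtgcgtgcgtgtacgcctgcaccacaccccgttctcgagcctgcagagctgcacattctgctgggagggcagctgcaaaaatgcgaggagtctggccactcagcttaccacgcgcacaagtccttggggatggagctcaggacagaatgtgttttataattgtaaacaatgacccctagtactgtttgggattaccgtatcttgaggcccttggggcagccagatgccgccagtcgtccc

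Junb region, chr8:84979498-84979797, minus strand, covered in 6 of 6 lists: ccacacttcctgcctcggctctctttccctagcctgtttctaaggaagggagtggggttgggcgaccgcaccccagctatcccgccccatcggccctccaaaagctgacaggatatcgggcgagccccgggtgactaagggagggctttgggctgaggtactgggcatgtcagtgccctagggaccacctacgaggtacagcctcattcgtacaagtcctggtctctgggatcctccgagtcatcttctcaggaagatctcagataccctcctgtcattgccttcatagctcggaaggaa

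Nr4a1 region, chr15:101241426-101241725, covered in 5 of 6 lists: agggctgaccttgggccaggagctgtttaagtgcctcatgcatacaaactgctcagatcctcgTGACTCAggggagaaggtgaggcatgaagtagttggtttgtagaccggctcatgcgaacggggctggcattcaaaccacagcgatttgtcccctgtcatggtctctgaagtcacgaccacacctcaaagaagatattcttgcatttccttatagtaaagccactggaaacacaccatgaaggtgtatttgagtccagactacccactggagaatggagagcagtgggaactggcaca

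Egr2 region, chr10:67482829-67483128, covered in 4 of 6 lists: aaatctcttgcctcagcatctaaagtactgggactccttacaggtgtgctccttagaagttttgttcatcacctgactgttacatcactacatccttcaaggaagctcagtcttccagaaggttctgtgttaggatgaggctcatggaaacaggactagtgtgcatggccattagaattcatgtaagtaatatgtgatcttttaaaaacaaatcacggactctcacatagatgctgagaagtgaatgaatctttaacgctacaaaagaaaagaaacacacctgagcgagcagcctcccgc

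Fos region, chr12:85455297-85455596, covered in 3 of 6 lists: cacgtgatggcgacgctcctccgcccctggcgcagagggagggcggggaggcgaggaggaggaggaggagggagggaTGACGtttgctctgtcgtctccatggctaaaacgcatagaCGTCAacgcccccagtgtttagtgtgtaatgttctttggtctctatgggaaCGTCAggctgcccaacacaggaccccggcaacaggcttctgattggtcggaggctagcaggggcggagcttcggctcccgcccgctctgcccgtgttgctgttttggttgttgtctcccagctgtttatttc

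Fos promoter, chr12:85473640-85473889, covered in 0 lists: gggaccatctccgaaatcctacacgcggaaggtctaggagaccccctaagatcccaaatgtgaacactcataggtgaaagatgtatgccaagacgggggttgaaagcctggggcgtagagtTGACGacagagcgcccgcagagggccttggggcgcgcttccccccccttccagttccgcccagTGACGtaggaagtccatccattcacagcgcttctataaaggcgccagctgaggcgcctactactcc

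Junb promoter, chr8:84978749-84978998, minus strand: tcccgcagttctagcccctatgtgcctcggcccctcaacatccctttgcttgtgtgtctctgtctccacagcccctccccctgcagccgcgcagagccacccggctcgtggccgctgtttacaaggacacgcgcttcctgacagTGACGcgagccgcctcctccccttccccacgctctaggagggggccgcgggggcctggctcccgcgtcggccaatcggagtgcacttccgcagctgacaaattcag

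Egr2 promoter, chr10:67537619-67537868: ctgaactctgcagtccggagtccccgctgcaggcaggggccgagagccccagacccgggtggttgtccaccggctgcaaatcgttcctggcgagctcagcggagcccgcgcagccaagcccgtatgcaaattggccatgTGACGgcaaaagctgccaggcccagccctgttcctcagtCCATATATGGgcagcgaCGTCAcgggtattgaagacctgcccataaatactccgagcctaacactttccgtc

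The Fos region held 3 TGACG cores, and the Nr4a1 region held 1 AP-1 site, while the Fosl2, Junb and Egr2 regions held none of the motifs searched. Regions of the other 5 genes are not shown or counted here. Over the middle 300 bases of 155960 H4K8ac peaks, 11.0% held the TGACG core, 10.2% the AP-1 site, 1.71% the CArG box, 0.669% the EGR site and 0.333% the whole cAMP response element. The Fos promoter held 2 TGACG cores and the Junb promoter 1. The Egr2 promoter held 2 cores and 1 CArG box. Of 32536 RefSeq promoters, 17.9% held the core, 1.48% the CArG box, 6.73% the AP-1 site, 4.74% the EGR site and 1.56% the whole element. The promoter table had 7 of the 10 genes, in which the core was found for 6 (Fos, Fosb, Junb, Egr2, Npas4 and Nr4a1), the EGR site for 3 (Fosb, Fosl2 and Nr4a1) and the CArG box for Egr2. A match describes the letters only, and no binding was measured.

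By the symbols assigned in the lists, H4K8ac was listed at 7 to 10 of the genes in each list. All 10 had a peak in the exercised SIT, sedentary SIT and sedentary left lists, where 63.2%, 51.0% and 60.1% of all genes did. The exercised left list held 8 of the 10 against 30.0% of all genes, the exercised right list 8 against 34.1%, and the sedentary right list 7 against 49.0%. Fosl2, Junb, Egr1, Egr3 and Nr4a1, 5 of the 10, were present in all 6 lists, as were 19.3% of all genes, and the lowest number of lists for any of the 10 was 4 (Fos and Egr2). Counting only peaks over the gene or the 3 kb before it, 5, 2 and 5 of the 10 were marked in the exercised SIT, left and right lists, beside 40.5%, 17.8% and 20.4% of protein-coding genes. In the sedentary lists 4, 5 and 3 were, beside 29.7%, 38.6% and 29.8%. With list lengths made equal by width, the sedentary left list held 6 (30.1% of all genes) and the sedentary right list 4 (32.6%). The median was 5.5 lists for the 10 genes and 3 over all genes. Over all protein-coding genes of the annotation as the background, the shares of genes with a peak were lower, from 19.6 to 41.2% per list.

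**Figure D1:**
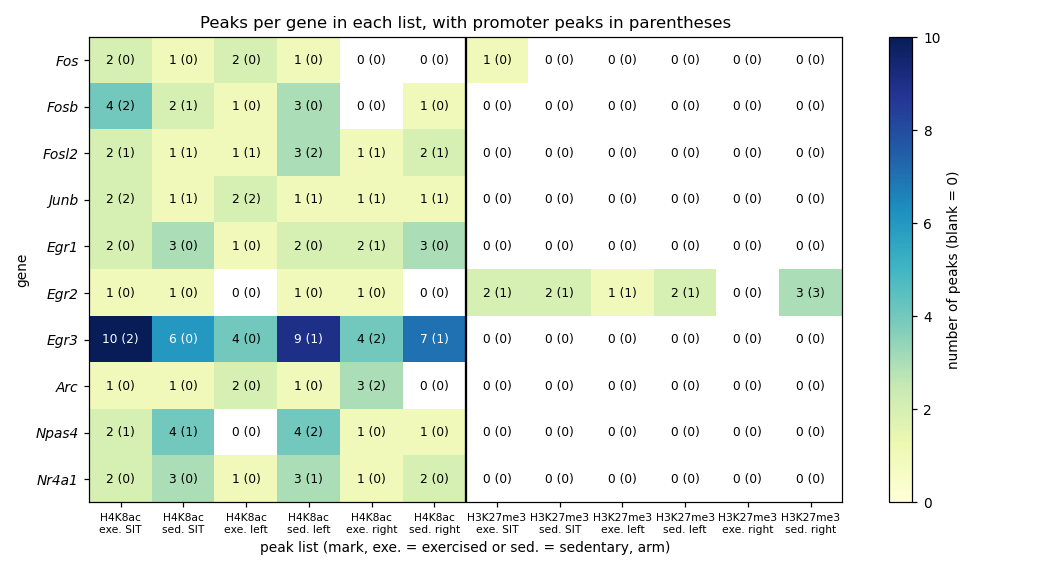
Number of peaks assigned to each gene (rows) in each of the 12 lists (columns, H4K8ac left of the line and H3K27me3 right of it), with the number of promoter peaks in parentheses and colour giving the number. Egr3 held the most H4K8ac peaks, 10 in the exercised SIT list, and H3K27me3 was listed at Egr2, in 5 of 6 lists, and in 1 list at Fos.

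By presence alone, exercised and sedentary lists differed at 0 of the 10 genes in SIT, 2 in the left arm and 3 in the right arm. In SIT, 10 of 10 genes were in both lists, 0 were gained and 0 lost, where 19.3% of all genes were gained (a peak in the exercised list and none in the sedentary list) and 7.14% lost (the reverse). In the left arm 8 were shared, 0 were gained and 2 were lost (Egr2 and Npas4), beside 2.23% gained and 32.4% lost over all genes. In the right arm 6 were shared, Egr2 and Arc were gained, Fosb was lost and Fos had no peak in either list, beside 4.92% gained and 19.8% lost. Egr2 was thus lost in the left arm and gained in the right arm. None of the 10 had a peak in all 3 exercised lists and no sedentary list, a pattern of 0.1% of all genes. The exercised left and right lists were the shortest for H4K8ac, with 12168 and 13715 peaks, and the other 4 held 25159 to 38136. In SIT no gain was possible, since all 10 were in the sedentary list. With only the widest peaks of the longer list kept, as many as the shorter one holds, the left arm had 3 gained (9.46% of all genes at that setting) and 1 lost (9.49%), and the right arm 5 gained (11.2%) and 1 lost (9.64%). According to the methods, some exercised H4K8ac libraries were left out for a high false discovery rate, mostly from the separate arms, and list length and exercise cannot be told apart. Likewise a peak that is missing from a list may reflect less of the mark or fewer reads, and these cannot be told apart.

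Promoter peaks, those within 3 kb of a start site, were found at 5 of the genes in the exercised SIT list (40.6% of all genes), 4 in the sedentary SIT list (26.1%), 2 in the exercised left list (15.0%), 5 in the sedentary left list (38.0%), 5 in the exercised right list (17.9%) and 3 in the sedentary right list (28.3%). Fosl2 and Junb had a promoter peak in 6 of 6 lists, Egr3 in 4, Npas4 in 3, Fosb in 2, and Egr1, Arc and Nr4a1 in 1 each. Fos and Egr2 had none. Promoter peaks were 32 of the 124 H4K8ac peaks, 25.8% against 23.5% of all H4K8ac peaks, and 38.7% of the peaks were distal intergenic against 28.3%. Without Egr3, whose peaks lay mostly in introns of a neighbouring gene, 31.0% of 84 peaks were promoter peaks.

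Start sites themselves were seldom inside a peak. An annotated start of the gene lay inside an H4K8ac peak for 3 of the 10 genes in the exercised SIT list (Fosb, Junb and Egr3), where 23.6% of 21911 protein-coding genes had this. It did so for Junb alone in the exercised left list (7.16%), for Egr1 alone in the exercised right list (8.43%) and for Junb alone in the sedentary SIT list (11.3%). The sedentary left list had Junb, Npas4 and Nr4a1 (18.0%), and the sedentary right list had 0 of the 10 (15.3%). Averaged over the 6 lists, 10% of the 10 genes had their principal start covered, against 10.18% of all protein-coding genes. Away from the start the values parted on both sides. At -1.6 kb, a point picked as the highest for the 10 genes, the average was 26.67% against 3.56%. It was 16.67% against 1.6% at -4 kb and 10% against 1.65% at -8 kb. Downstream it was 15% against 6.67% at 1 kb, 11.67% against 2.57% at 2 kb and 3.33% against 1.64% at 4 kb. Each of these averages is over 10 genes in 6 lists, and the same genes recurred between lists.

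**Figure D2:**
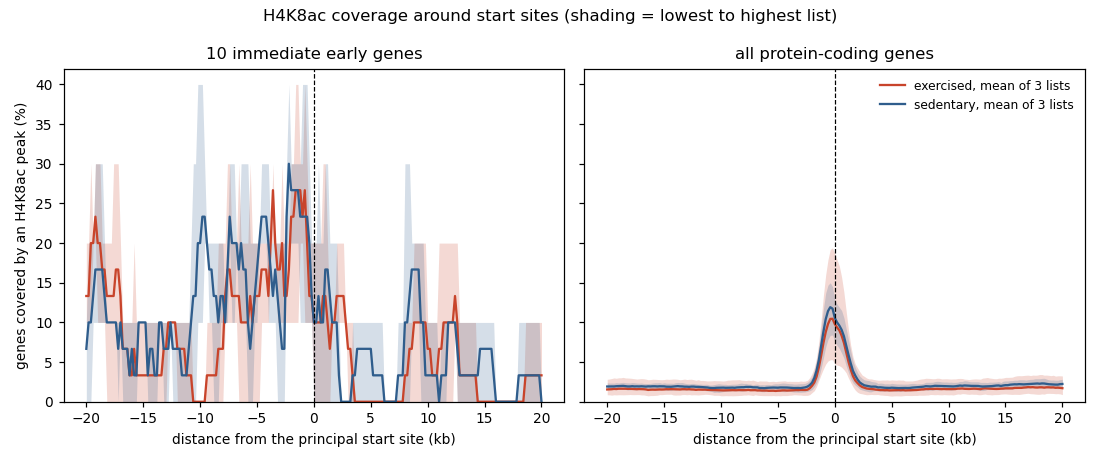
Percent of genes covered by an H4K8ac peak at each distance from the principal start site (kb, upstream negative), for the 10 immediate early genes (left) and all protein-coding genes (right). Lines are means of 3 lists and shading runs from the lowest to the highest list, and the average over 6 lists at the start itself is 10% on the left and 10.18% on the right, while at -4 kb it is 16.67% and 1.6%.

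Fos, the AP-1 subunit most used as a marker of recently active neurons, carried H4K8ac on both sides of the gene and none over it. The upstream region, -19.48 to -17.18 kb from the start (chr12:85454405-85456715), was covered in the exercised left list by a peak of 2311 bp, in the sedentary left list by 1691 bp and in the exercised SIT list by 1583 bp. The downstream region, 11.0 to 14.43 kb past the start (chr12:85484889-85488317), held peaks of 1673 bp in exercised SIT, 2695 bp in sedentary SIT and 2092 bp in exercised left. Exercised and sedentary lists were mixed in both regions. No peak of either right list was assigned to Fos, and the nearest H4K8ac peak in those lists was 135 and 203 kb from the start.

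Fosb, whose truncated product accumulates with repeated activity, had 4 peaks in the exercised SIT list, 2 in sedentary SIT, 1 in exercised left, 3 in sedentary left, 0 in exercised right and 1 in sedentary right. The only peak over its start was in exercised SIT, 1040 bp at chr7:19309933-19310972. A region inside the gene, 0.79 to 2.8 kb past the start, was covered in both SIT lists by 2006 bp (exercised) and 1395 bp (sedentary). A peak 8.24 to 9.89 kb past the start, in an exon beyond the end of Fosb, was in exercised SIT (1648 bp) and sedentary left (1065 bp). The region found in most lists lay in an intron of a neighbouring gene, -17.61 to -15.67 kb from the start, in 2 exercised and 2 sedentary lists with peaks of 1157 to 1832 bp. Another, in an exon outside Fosb at -11.03 to -9.12 kb, was in the sedentary left and right lists (1682 and 1911 bp). It was in no exercised list.

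Fosl2, a Fos-related antigen that pairs with Jun proteins, had the steadiest promoter peak with Junb. The peak measured 3053 bp in exercised SIT, 3095 bp in exercised left and 2421 bp in exercised right, and 1164, 3108 and 1497 bp in the matching sedentary lists. All 6 peaks shared the 1164 bp at chr5:32133298-32134461, -2.5 to -1.34 kb from the start, which hold the Fosl2 sequence shown above. A stretch of 220 bp at its far end (chr5:32132163-32132382) was covered in 3 of 3 exercised and 0 of 3 sedentary lists, although the sedentary left peak began at the next base. Peaks inside the gene were listed in sedentary left (1241 and 1478 bp) and sedentary right (1562 bp) and in no exercised list. The exercised SIT list had a distal peak of 2008 bp at 41.05 kb.

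Junb, the Jun partner with weaker transactivation than Jun, had all 8 of its peaks at the promoter. The 6 lists shared 813 bp just upstream of the start, at chr8:84979242-84980054, and merged peaks ran from -2.48 to 3.41 kb. The widest was 4481 bp in sedentary SIT, across the start, and the exercised SIT peak across the start was 3325 bp. Exercised left held a peak on each side of the start, 1184 bp upstream and 3358 bp downstream. Exercised right had 1568 bp, sedentary left 2994 bp and sedentary right 2202 bp. Bases covered in all sedentary and no exercised lists came to 240 at the far upstream edge.

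**Figure D3:**
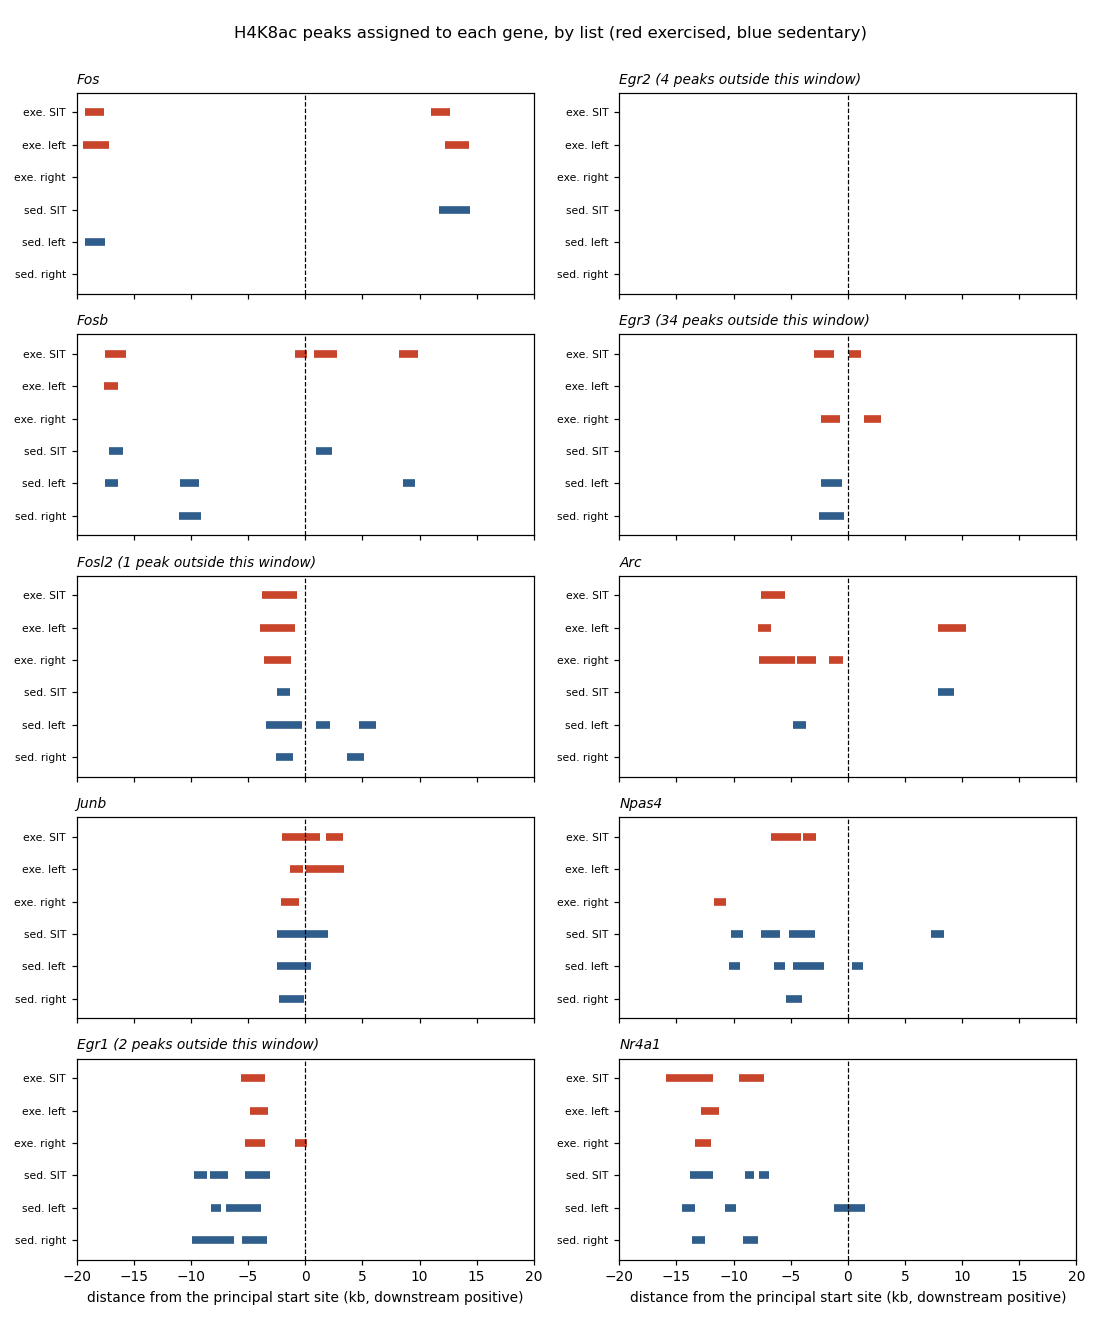
H4K8ac peaks assigned to each gene, drawn by distance from the principal start site (kb, dashed line at the start, downstream positive), with 1 line per list, exercised lists in red above sedentary lists in blue. Fosl2 and Junb have peaks near the start in all 6 lists, Fos has none within 11.0 kb, and 34 peaks of Egr3 and 4 of Egr2 lie outside the window.

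Egr1, also known as Zif268, which is induced in the hippocampus by learning, had peaks upstream of the gene in all 6 lists. All lists shared 950 bp at chr18:34855024-34855973, -4.8 to -3.85 kb from the start, in peaks of 2053, 1585 and 1747 bp in the exercised SIT, left and right lists and 2145, 3089 and 2215 bp in the sedentary ones. Beyond these, sedentary lists ran further out than exercised lists. The 917 bp at chr18:34851543-34852459, -8.28 to -7.36 kb from the start, were covered in 3 of 3 sedentary lists, by peaks of 1607 bp (SIT), 917 bp (left) and 3670 bp (right), and in 0 of 3 exercised lists. In all, 1831 bp at Egr1 had this pattern, part of them in the left list through a peak assigned to a neighbouring gene. The summed width of the peaks of Egr1 was larger in sedentary than in exercised lists in 3 of 3 arms: 3373 bp exercised and 4870 bp sedentary in SIT, 1585 and 4006 bp in the left arm, and 2799 and 7541 bp in the right arm. These sums include a region 26.98 to 28.63 kb past the start, listed in exercised SIT (1320 bp) and sedentary right (1656 bp). The only promoter peak, 1052 bp across the start, was in the exercised right list.

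Egr3, a factor of the same family needed for muscle spindles and hippocampal plasticity, held 40 of the 124 H4K8ac peaks. Counts were 10 in exercised SIT, 6 in sedentary SIT, 4 in exercised left, 9 in sedentary left, 4 in exercised right and 7 in sedentary right, with the larger number in the longer list of each arm. Of the 40, 34 lay -113.28 to -53.5 kb from the start, in introns of the neighbouring gene, and were given to Egr3 by the annotation. Their assignment rests on the transcript that the lists name, and nothing in the lists links them to Egr3. Among these, the regions at chr14:69975457-69978996 and chr14:69990542-69997605, were in all 6 lists, and the latter held the widest H4K8ac peak of any of the genes, 7064 bp in sedentary left. Near the gene, a promoter region at -2.95 to -0.37 kb was covered by 1782 bp in exercised SIT, 1696 bp in exercised right, 1844 bp in sedentary left and 2127 bp in sedentary right. Peaks inside the gene were listed in exercised SIT (1075 bp) and exercised right (1479 bp) and in no sedentary list.

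Egr2, also called Krox20, which patterns the hindbrain and drives myelination in Schwann cells besides its induction in neurons, differed from the other genes in carrying H3K27me3 at its promoter. Merged over the lists, the promoter region ran from -10.61 to -1.25 kb of the principal start (chr10:67527255-67536623) and was present in 5 of 6 H3K27me3 lists. Its peaks measured 7740 bp in exercised SIT, 5875 bp in sedentary SIT, 4204 bp in exercised left and 6014 bp in sedentary left, and 2542 and 2224 bp for a pair of peaks in sedentary right. The exercised right list had no H3K27me3 peak at Egr2, and the nearest was 25.7 kb from the start. That list was the shortest for H3K27me3, with 9899 peaks against 10279 to 25693. Peaks of 4 lists covered an upstream start of Egr2, and none covered the principal start that follows the promoter shown above. A further region, -34.47 to -31.52 kb from the start, was marked in both SIT lists and sedentary left, by 1747 to 2913 bp, and the sedentary right list had 2119 bp inside the gene.

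H4K8ac at Egr2 was found away from the H3K27me3 peaks, in the region -56.17 to -53.7 kb from the start (chr10:67481700-67484166). It measured 2467 bp in exercised SIT, 1374 bp in sedentary SIT, 1233 bp in sedentary left and 1587 bp in exercised right, and was not in the other two lists. A nearer H4K8ac peak, which the lists assign to the neighbouring gene Ado, began 10.4 kb past the Egr2 start in exercised SIT, 11.2 kb in exercised right, 11.7 kb in sedentary left and 11.2 kb in sedentary right. Exercise and the upstream peak did not go together across the arms, since it was present with both conditions in SIT, with sedentary alone on the left and with exercised alone on the right.

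H3K27me3 was otherwise rare at these genes. In the exercised SIT list 2 of the 10 had a peak (38.1% of all genes), in sedentary SIT 1 (22.5%), in exercised left 1 (30.6%), in sedentary left 1 (27.5%), in exercised right 0 (20.6%) and in sedentary right 1 (35.4%). The gene gained in SIT was Fos (15.9% of all genes were gained there), through a peak of 4609 bp in an exon of another gene -45.93 to -41.32 kb from its start. The gene lost in the right arm was Egr2 (15.9% lost). For the other 8 genes no H3K27me3 peak was assigned in any list, and the nearest one was at least 25.8 kb from the start (Junb) and at most 690 kb (Fosl2).

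Nr4a1, the orphan nuclear receptor Nur77, had a distal upstream region in 6 of 6 lists, -15.9 to -11.24 kb from its furthest upstream start (chr15:101238368-101243027). Peaks there were 4132 bp in exercised SIT, 1640 bp in exercised left and 1348 bp in exercised right. They were 2004 bp in sedentary SIT, 1169 bp in sedentary left and 1141 bp in sedentary right. Inside this region 798 bp (chr15:101238801-101239598) were covered in 1 exercised and 3 sedentary lists. The sedentary peaks there were not assigned to Nr4a1 and are missing from these widths, so the difference in width rests partly on assignment. The left peaks of exercised and sedentary mice did not overlap each other, so that at most 5 lists shared a base. A region nearer the gene, -9.54 to -6.89 kb, was in exercised SIT (2181 bp), sedentary right (1334 bp) and sedentary SIT (785 and 846 bp). The only promoter peak was in sedentary left, 2740 bp across the upstream start.

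Npas4, a factor induced by calcium entry and found mainly in neurons, had 2 peaks in exercised SIT, 0 in exercised left and 1 in exercised right, and 4, 4 and 1 in the matching sedentary lists. Its main region lay -7.59 to -2.05 kb from the start (chr19:4992366-4997911) and was marked in all 3 sedentary lists and in exercised SIT. Summed peak widths were 3800 bp exercised and 6097 bp sedentary in SIT, 0 and 5719 bp in the left arm and 982 and 1391 bp in the right arm, so that the sedentary list was wider in 3 of 3 arms. With list lengths made equal by width the right arm turned, to 982 bp exercised and 0 sedentary. The exercised right peak, 982 bp at -11.67 to -10.69 kb, overlapped no other list. A region -10.37 to -9.14 kb from the start was in sedentary SIT (1086 bp) and sedentary left (938 bp). Sedentary left alone had a peak just inside the gene, 969 bp at 0.4 to 1.37 kb.

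Arc, whose messenger RNA travels to active dendrites, was the gene whose summed peak width was larger in the exercised list in 3 of 3 arms: 2106 bp exercised and 1353 bp sedentary in SIT, 3551 and 1157 bp in the left arm, and 6132 and 0 bp in the right arm. The 3 exercised lists shared 882 bp at chr15:74679292-74680173, -7.6 to -6.72 kb from the start, in peaks of 2106 bp (SIT), 1144 bp (left) and 3210 bp (right), and no sedentary list covered any of these bases. The nearest sedentary peak was 1157 bp in the left list, -4.79 to -3.63 kb from the start. Exercised right also held 1675 and 1247 bp closer to the gene, the only promoter peaks of Arc in any list. A region 7.91 to 10.34 kb past the start was covered in exercised left (2407 bp) and sedentary SIT (1353 bp). No H3K27me3 peak was assigned to Arc.

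**Figure D4:**
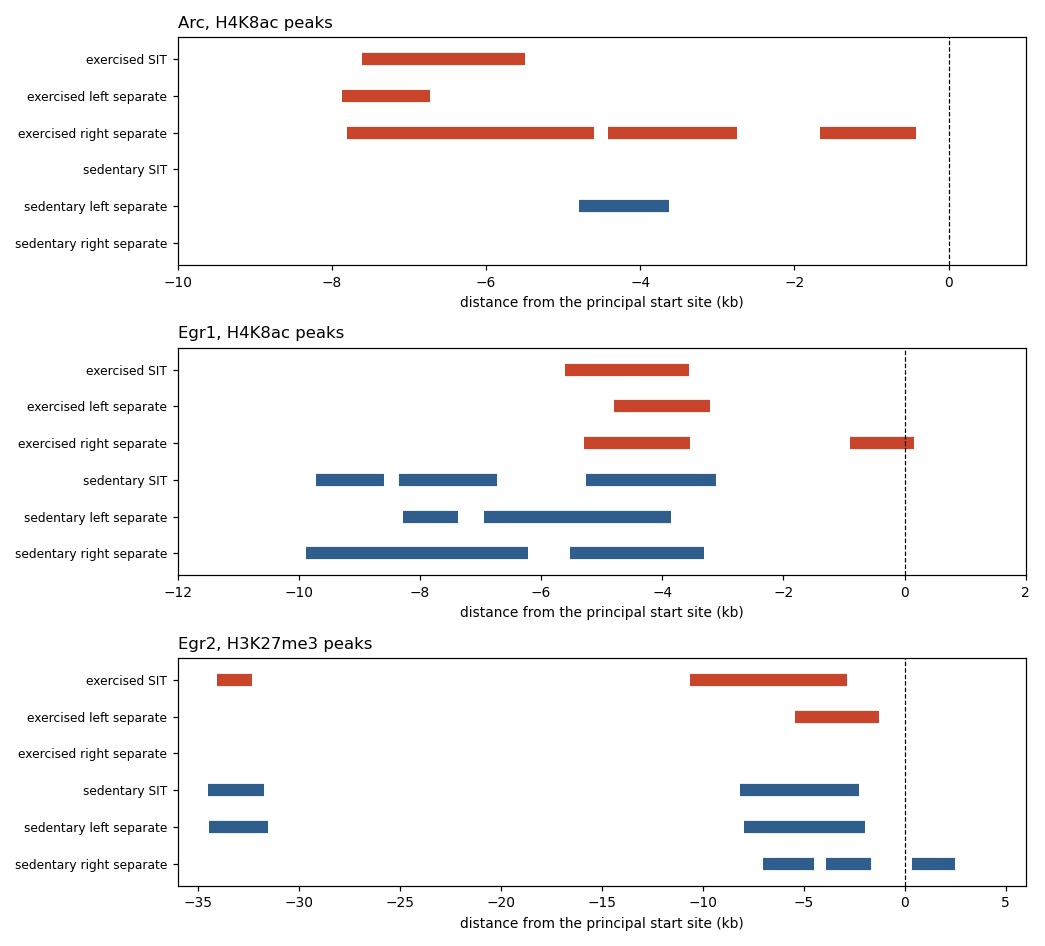
Peaks by distance from the principal start site (kb, dashed line) in each list, for H4K8ac at Arc and Egr1 and H3K27me3 at Egr2, exercised in red and sedentary in blue. At Arc the 3 exercised peaks overlap between -7.6 and -6.72 kb, where no sedentary peak lies, at Egr1 the 3 sedentary lists reach -8.28 to -7.36 kb and no exercised list does, and at Egr2 the promoter region is marked in 5 of 6 lists.

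Bases covered in 3 exercised and 0 sedentary H4K8ac lists were found at 2 of the 10 genes, Arc (882 bp) and Fosl2 (220 bp), where 3.8% of all genes had any such bases. The opposite pattern was found at 4 of the 10, Egr1 (1831 bp), Egr3 (679 bp), Junb (240 bp) and Npas4 (31 bp), where 11.2% of all genes had it. In bases, the exercised-only pattern made up 1.03% of the 106893 bp covered at the genes against 0.175% of all covered bases, the sedentary-only pattern 2.6% against 0.768%, and bases in all 6 lists 4.06% against 2.9%. Genes with more peaks have more bases that could take either pattern, and the shares over all genes are not matched for this.

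Merged over lists, the 124 H4K8ac peaks formed 39 regions, of which 24 had peaks from both conditions, 7 from exercised lists only and 8 from sedentary lists only. Merged in the same way for each gene, 64097 regions over all genes had these patterns in 42.8%, 19.4% and 37.8%. Regions found in a single list numbered 12 of the 39 (50.1% over all genes), and 6 were found in all 6 (5.83%). Within an arm, 17 of 28 exercised SIT peaks overlapped a sedentary SIT peak (43.9% of all exercised SIT peaks did), 9 of 14 in the left arm (73.1%) and 7 of 14 in the right arm (68.0%).

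The summed width of the H4K8ac peaks at the 10 genes was 61.8 kb in exercised and 41.6 kb in sedentary SIT, a ratio of 1.49, where the ratio over all peaks was 1.73. In the left arm it was 27.2 and 56.1 kb, a ratio of 0.485 (0.391 over all peaks), and in the right arm 23.8 and 34.4 kb, a ratio of 0.692 (0.437). The direction at the genes thus followed that of the whole lists in each arm. With list lengths made equal by keeping only the widest peaks of the longer one, the left ratio moved to 0.857 and the right ratio turned to 1.17. With promoter peaks alone the right ratio turned to 1.91. The ratio over all peaks was not computed at these settings, so whether the turns are particular to these genes was not tested. Among the genes, Arc was wider in exercised lists in 3 arms, Egr1 and Npas4 in sedentary lists in 3 arms, and 6 others were mixed. Of 7641 genes with an H4K8ac peak in every arm, among them 9 of the 10, 1.86% were wider in the exercised list in 3 arms and 12.5% in the sedentary list. At equal list lengths Arc and Egr1 had the same direction in 3 arms. Npas4 was wider in the sedentary list in 2 arms and in the exercised list in 1. That setting trims only the longer list, exercised in SIT and sedentary in the separate arms. It could therefore turn Arc only in SIT, and Egr1 and Npas4 only in the separate arms. The share of all genes at that setting was not computed. Fos was wider in the exercised list in SIT and the left arm and had no peak in the right arm.

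**Figure D5:**
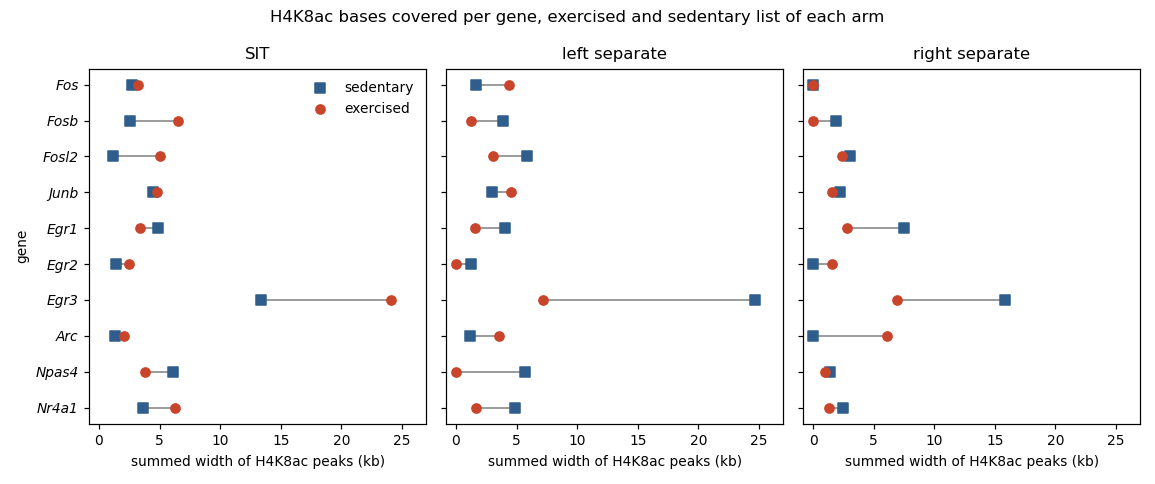
Summed width of H4K8ac peaks (kb) at each gene in the exercised (red circle) and sedentary (blue square) list of each arm, joined by a line. Egr3 spans 24.1 and 13.4 kb in SIT, 7.2 and 24.7 kb on the left, and 6.9 and 15.8 kb on the right, and Arc is the gene whose red circle lies to the right of the blue square in all 3 arms.

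Of 22 other rapid response genes, 14 had an H4K8ac peak in at least 1 list, as did 79.9% of all genes. Their median was 3 lists, and 7 were in all 6 lists, as were 19.3% of all genes. Those with the widest total among them were Nr4a3 (162.9 kb over the 6 lists), Jun (125.2 kb), Nr4a2 (82.3 kb) and Trib1 (59.9 kb). Nr4a3, Ier2 and Btg2 matched Fosl2, Junb, Egr1, Egr3 and Nr4a1 in their presence over all 12 lists, in each H4K8ac list and no H3K27me3 list. In SIT, 6 of the 22 were gained and 0 lost (19.3% and 7.14% of all genes), in the left arm 0 were gained and 4 lost (2.23% and 32.4%), and in the right arm 1 was gained and 3 were lost (4.92% and 19.8%). No H4K8ac peak was assigned to 8 of them: Fosl1, Egr4, Atf3, Maff, Gadd45b, Ccn1, Amigo3 and Csrnp1.

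H3K27me3 promoter peaks marked 5 of these 22 genes and 1 of the 10, Egr2, in at least 1 list, and 25.2% of all genes. Atf3, a stress-induced partner of Jun, and Ccn1, a secreted matrix protein, had one in 6 of 6 lists, and Nr4a2, Fosl1 and Maff in 1 list each. Atf3, Ccn1, Fosl1 and Maff had no H4K8ac peak, whereas Nr4a2 had an H4K8ac promoter peak in 6 of 6 lists. Egr2 lay between these, with H3K27me3 at the promoter in 5 lists and H4K8ac only at a distance.

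The 16 later response genes, a list of other genes that neuronal activity induces, had a median of 6 H4K8ac lists, with 14 marked at all (79.9% of all genes) and 10 in all 6 lists (19.3%). Plk2 (188.8 kb in total), Bdnf (186.4 kb), Sgk1 (145.6 kb) and Nrn1 (133.1 kb) had the widest totals among those in all lists. Those 4 and Scg2, Inhba, Pcsk1, Crem, Rgs2 and Ptgs2 had the same presence over the 12 lists as Fosl2, and Homer1 the same as Fosb. Vgf, which had H3K27me3 at its promoter in 2 lists, and Gpr3 had no H4K8ac peak. Counts for SIT were 0 gained and 0 lost, for the left arm 0 and 2, and for the right arm 0 and 2, beside the shares of all genes given for the rapid response genes.

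Of 12 genes for factors that act on the promoters, 9 had an H4K8ac peak (79.9% of all genes), 7 in all 6 lists (19.3%). Mef2c (214.8 kb in total), Mrtfa (58.6 kb), Crtc1 (50042 bp) and Mef2d (46.6 kb) had the widest totals, and Mef2c also had an H3K27me3 promoter peak in 1 list. Creb1, Mef2a and Mrtfb, with Crtc1, Mef2d and Mrtfa, had the same presence as Fosl2. No H4K8ac peak was assigned to Elk1, Crebbp or Ep300. In SIT 1 of the 12 was gained (19.3% of all genes), Srf itself. In SIT, left and right 0 were lost, beside 7.14%, 32.4% and 19.8% of all genes.

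Markers of the cell types were checked in the same lists, as marks on chromatin and not RNA. Of 9 excitatory neuron genes, 8 had an H4K8ac peak (79.9% of all genes) and 5 were in all 6 lists (19.3%). These 5 were Emx1, Neurod2, Neurod6, Camk2a and Snap25, while Grin1 had no H4K8ac peak. H3K27me3 peaks were also assigned to Emx1 in 5 lists and to Prox1 in 6, for Prox1 at the promoter in 2. Of 5 inhibitory neuron genes, 5 had an H3K27me3 promoter peak (25.2% of all genes), with Gad2, Pvalb and Sst in 6 of 6 lists. H4K8ac peaks were assigned to Sst in 4 lists and Gad1 in 2, none at a promoter. H4K8ac peaks were also assigned to markers of astrocytes (5 of 5), oligodendrocytes (3 of 5), microglia (2 of 4) and endothelium (1 of 3). Over all genes the share with a peak in at least 1 list was 79.9%. Mbp, Aqp4, P2ry12 and Pecam1 were in all 6 lists, as were 19.3% of all genes. Mbp and P2ry12 had an H4K8ac promoter peak in 6 of 6 lists and no H3K27me3 peak. For Aqp4 and Pecam1 no H4K8ac peak was a promoter peak, and Aqp4 had an H3K27me3 promoter peak in 6 of 6 lists. Aldh1l1 also had one in 6 lists and Gja1 in 5. Slc1a3 had H3K27me3 peaks in 6 lists, none at the promoter, and Gfap had no H3K27me3 peak. Olig2, Sox10, Cx3cr1, Tmem119, Cldn5 and Flt1 had no H4K8ac peak and an H3K27me3 promoter peak in 4 to 6 lists. The part of other cell types in the values above was not tested.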

How the data were processed

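The 60 samples, CUT&RUN-seq libraries for H4K8ac, H3K27me3 or IgG, were grouped by their labels into antibody, condition and arm. As the methods describe, the authors mapped reads by Bowtie2 2.4.1, called peaks with SEACR (stringent, 0.01) and annotated them with ChIPseeker 1.8.6 on mm10, with promoters as 3 kb on either side of a start site. FastQC 0.11.9 is also named in the submitters' processing notes. How libraries were combined into a list is not given in the sources used here. The 12 deposited lists hold peak positions and widths in bp, listed distances and gene symbols, pooled over the group. They hold no count, score or signal, so the depth and precision of a list are not given. Signal tracks and reads of single libraries, which the study also names, were not used here.

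The members and the gene lists were chosen with earlier results of these data known. A gene was present where at least 1 peak carried its symbol. All genes were the 16995 symbols with a peak in any list, and start sites came from GENCODE M21 (99.0% of 31151 listed transcripts were found there, each with the same start and end). The principal start was that of the APPRIS principal transcript, the longest where several tied. Overlap meant at least 1 bp. Bases were counted over all peaks of the lists, whatever their symbol, inside the regions assigned to a gene. Sequences came from the RefSeq tables and the GRCm38.p6 genome, where 7 of the 10 genes had a promoter. No test was run on the pooled lists. The genes named were the 10, and from each wider list those with an H3K27me3 promoter peak, up to 4 with H4K8ac in most lists (ties by total width), those with no H4K8ac peak and those with the same presence as a member. Markers beyond that rule were chosen after their values were seen.

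Alternatives were promoter peaks alone, all but distal intergenic peaks, equal numbers of peaks by width, at least 2 peaks per gene, peaks over the gene or the 3 kb before it, a window of 1 kb, reciprocal overlap of 50% and leaving out each gene. Principal starts alone and a background of protein-coding genes were added after seeing the data. The interval functions were tested on simulated data and gave the right base counts in 20 of 20 sets. IgG samples have no list and were not analysed here. Software was Python 3.11.15, pandas 2.3.3, numpy 2.4.6 and matplotlib 3.10.9.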

Additional observations from a re-analysis of the deposited data

Results flagged for a closer look

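The exercised over sedentary ratio of H4K8ac bases covered at the 10 genes lay above 1 in SIT (1.49) and below 1 in the left (0.485) and right (0.692) separate arms, which is why it was singled out. Each value compares a pair of combined lists, and the difference between arms was not tested. The ratio over all peaks had the same directions, at 1.73, 0.391 and 0.437.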

How the results depend on the processing

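No paired analysis was made, because no result comes from a test, the lists do not separate samples and single libraries were not used. Of 172 values recomputed under an alternative, 110 stayed within 1.5 times the reported value, 60 moved further and 2 turned direction. The exercised over sedentary ratio of covered H4K8ac bases in the right arm turned from 0.692 to 1.17 with equal numbers of peaks by width and to 1.91 with promoter peaks alone, and the left ratio moved from 0.485 to 0.857 with equal numbers. The ratio over all peaks was not computed at these settings. Leaving out 1 gene at a time, the ratio at the genes ran from 1.34 to 1.63 in SIT, 0.419 to 0.638 in the left arm and 0.513 to 0.906 in the right arm.

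Genes with an H4K8ac peak, in the order exercised SIT, left and right and then sedentary SIT, left and right, numbered 5, 2, 5, 4, 5 and 3 with promoter peaks alone, 5, 4, 5, 5, 6 and 4 without distal intergenic peaks, and 5, 2, 5, 4, 5 and 3 by overlap with the gene or the 3 kb before it. With at least 2 peaks they numbered 4 and 3 in exercised left and right and 5, 6 and 4 in the sedentary lists. Shares of all genes without distal intergenic peaks or with at least 2 peaks were not computed. With equal numbers by width, sedentary left fell to 6 and sedentary right to 4. Within 1 kb, sedentary SIT had 2 genes with a promoter peak. H3K27me3 marked 1 gene in exercised SIT by gene overlap and 0 in sedentary right with equal numbers.

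Gained H4K8ac genes in SIT became 1 with promoter peaks or by gene overlap and 3 with 2 peaks, in the left arm 3 with equal numbers and 3 with 2 peaks, and in the right arm 5 with equal numbers and 1 with 2 peaks. Lost genes became 1 with equal numbers and 5 with 2 peaks in the left arm, and 0 with promoter peaks, 0 by gene overlap and 2 with 2 peaks in the right arm. For H3K27me3, the gain in SIT became 0 with promoter peaks, with 2 peaks and by gene overlap. A loss of 1 appeared in the left arm with 2 peaks, and the loss in the right arm became 0 with equal numbers. Shares of all genes gained or lost were not computed with promoter peaks, with 2 peaks, by gene overlap or for H3K27me3 with equal numbers. Counts at those settings therefore cannot be set against the whole lists.

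Starts within 1 kb of an H4K8ac peak numbered 2, 4, 2, 5 and 2 in exercised left, exercised right, sedentary SIT, sedentary left and sedentary right, and the principal start was inside a peak for 0 genes in exercised left. With 50% reciprocal overlap, 9 exercised peaks in SIT and 4 in the left arm had a sedentary partner. With all protein-coding genes as background, the shares of genes with an H4K8ac peak were 41.2, 19.6, 22.1, 32.8, 39.4 and 31.6%. Equal numbers keep wider peaks of the longer list, which is how that setting is built, and the cause of the other moves was not tested. The lists give neither depth nor replicate spread.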
